A study of Mus musculus with 12 samples.

Results

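The 44 genes described here encode effectors of the type I interferon response: proteins that bind viral RNA, modify host proteins, restrict virus entry and budding, or sense DNA in the cytosol. They were taken by name from a fixed list, and sensors, transcription factors and interferon-inducible GTPases of the guanylate-binding family were left to other lists. All 44 were among the 14264 genes of the tables, and all passed the minimum mean normalized count of 10. Their mean normalized counts ran from 1816 for Isg20 to 108690 for Rsad2, with a median of 8191, against a median of 446.3 over all genes.

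RNA came from mouse bone marrow-derived macrophages, cells grown from marrow, with 3 libraries in each of 4 groups. Control cells carried a control short hairpin RNA (shCTRL, labelled WT) and knockdown cells a hairpin against MOF (shMOF), the lysine acetyltransferase encoded by Kat8. Each kind was left unstimulated or given lipopolysaccharide (LPS), a bacterial product sensed by TLR4, at 100 ng/ml for 3 h. The labels give no strain, sex or age, a single MOF hairpin and no rescue, so loss of MOF and off-target action of that hairpin cannot be told apart. The deposited tables compare shMOF with shCTRL in each LPS state and hold no values per library, so the values below are log2 fold changes, each with a standard error (SE), and not levels per sample. A gene that rose or fell was higher or lower in shMOF than in shCTRL cells of the same LPS state. This holds also for values given after LPS. Levels with and without LPS are not compared. Whether the 3 libraries of a group are separate animals or cultures is not labelled, and p-values therefore measure the spread between these libraries only, which may be technical.

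In macrophages, LPS bound by TLR4 signals through the adaptor TRIF to the kinase TBK1 and the factor IRF3, which switch on the gene for interferon beta. Secreted interferon binds IFNAR on the same and neighbouring cells, and the kinases JAK1 and TYK2 then activate the factor complex ISGF3, which binds the interferon-stimulated response element (ISRE) in the promoters of effector genes. Resting macrophages keep a low tonic interferon signal that holds many of these genes at a basal level.

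The ISRE letters themselves can be read in the promoters of many members. RefSeq promoter windows on GRCm38.p6, which has the coordinates of mm10, reach from 250 bases before to 50 after the transcription start and were found by symbol for 33 of the 44 members. The ISRE was searched on both strands as GAAA, any 2 bases and GAAA again, so TTTC, any 2 bases and TTTC is the same motif read on the other strand. It was present for 14 of the 33 members, or 42.4%, against 3.99% of all 27025 genes in the promoter table. The gamma-activated site, searched as TTCNNNGAA, was present for 8 of the 33, or 24.2%, against 9.55% of genes. Stretches before the start are shown for 9 members to which the results return, in the direction of the gene, with ISRE matches in capitals. They are Isg15 (chr4:156200855-156200916, minus strand), Ifit1 (chr19:34640765-34640833, plus strand), Ifit3 (chr19:34583353-34583436, plus strand), Ifit3b (chr19:34607749-34607832, plus strand) and Rsad2 (chr12:26456543-26456592, minus strand). The others are Oas1a (chr5:120907526-120907565, minus strand), Oas1g (chr5:120887614-120887651, minus strand), Ifi205 (chr1:174031860-174031909, minus strand) and Bst2 (chr8:71537567-71537622, minus strand).
Isg15: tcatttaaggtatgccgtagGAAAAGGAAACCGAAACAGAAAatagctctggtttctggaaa
Ifit1: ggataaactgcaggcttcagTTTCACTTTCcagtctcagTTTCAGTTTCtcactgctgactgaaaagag
Ifit3: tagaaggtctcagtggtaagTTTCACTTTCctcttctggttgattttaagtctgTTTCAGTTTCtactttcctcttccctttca
Ifit3b: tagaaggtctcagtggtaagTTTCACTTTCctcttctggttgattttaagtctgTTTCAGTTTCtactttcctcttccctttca
Rsad2: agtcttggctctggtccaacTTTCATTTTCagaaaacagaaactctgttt
Oas1a: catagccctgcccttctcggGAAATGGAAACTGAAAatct
Oas1g: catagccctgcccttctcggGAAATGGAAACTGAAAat
Ifi205: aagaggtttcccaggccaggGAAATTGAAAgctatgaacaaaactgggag
Bst2: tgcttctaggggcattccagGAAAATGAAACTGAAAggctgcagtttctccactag

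Isg15 carried 3 overlapping matches, and Oas1a, Oas1g and Bst2 2 overlapping matches each. The stretches of Ifit3 and Ifit3b were identical over all 84 bases, and those of Oas1a and Oas1g over the 38 bases they share. Of the 14 members with a match, 9 rose in unstimulated knockdown cells and 10 at LPS 3 h, with median log2 fold changes of 0.36 and 0.32. Of the 19 without one, 9 and 12 rose, with medians of 0.26 and 0.25. Over all genes tested 21.3% rose unstimulated and 28.1% at LPS 3 h. Among the 3125 genes at or above the lowest member mean, 38.0% and 55.0% rose. No test of members with against those without a match was made. Members without a match in this window included Daxx, Cmpk2 and Samd9l, each of which rose at LPS 3 h. In the map of matches they lie between positions -188 and 33 relative to the start.

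**Figure D1:**
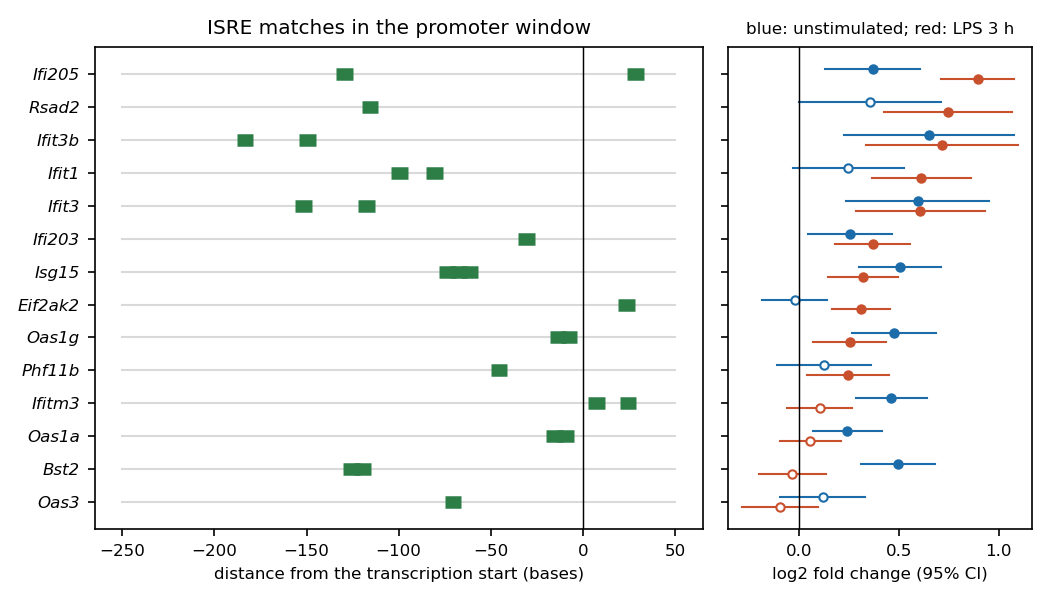
The left panel plots ISRE matches (green) against distance from the transcription start in bases for the 14 members that hold one, and the right panel their log2 fold changes, shMOF over shCTRL, with 95% confidence intervals, unstimulated in blue and LPS 3 h in red (open, adjusted p of 0.05 or more). Ifi205 at the top had 0.90 at LPS 3 h and Oas3 at the bottom -0.09, with matches in both.

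Knockdown cells had less Kat8 RNA. Kat8 stood at -2.25 (SE 0.10, adjusted p = 2.08e-101) on the log2 scale unstimulated, per the authors' deposited table, and at -2.31 (SE 0.13, adjusted p = 4.86e-67) at LPS 3 h. Markers of the labelled cell type were abundant: all 8 macrophage markers were measured, with mean normalized counts from 1233 for Mertk to 259735 for Lyz2. None of the T and NK cell, erythroid or mast cell and basophil markers had a row with a mean of at least 10, and neutrophil, dendritic and B cells had 1 marker each there (S100a8, Zbtb46 and Cd79b, with means of at most 104). Macrophage markers rose in 8 of 8 cases unstimulated and 6 of 8 at LPS 3 h, with medians of 0.45 and 0.25 and 0 falls. Among all genes tested, 21.3% rose and 17.8% fell unstimulated, and 28.1% rose and 20.0% fell at LPS 3 h. Of 5 fibroblast markers 3 rose in both states, the collagen genes Col1a1, Col1a2 and Col3a1, with list medians of 0.43 and 0.56. Progenitor markers went lower, 3 of 3 unstimulated and 2 of 3 at LPS 3 h. The part of these shifts in the results below was not tested, and in bulk RNA fewer cells of a type and less RNA per cell cannot be told apart.

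Knockdown cells had higher levels of most effector genes in both states, by small amounts. Unstimulated, 26 of 44 rose and 0 fell at an adjusted p under 0.05, or 59.1% of members, with a median log2 fold change of 0.27 and a range from -0.23 to 0.68. Of all genes tested there, 21.3% rose and 17.8% fell. At LPS 3 h, 31 of 44 rose and 0 fell, or 70.5%, with a median of 0.32 and a range from -0.15 to 0.94, against 28.1% of all genes rising and 20.0% falling. The largest rise, of Cmpk2 at LPS 3 h, was 1.92-fold, so no member reached a doubling in either state. Members are abundant, and abundant genes were called more often. Among the 3125 genes with a mean at or above that of the lowest member, called genes of like level below, 38.0% rose and 19.2% fell unstimulated, and 55.0% rose and 14.6% fell at LPS 3 h. Their medians were 0.07 and 0.15, against 0.03 in each state over the 12994 genes with a mean of at least 10. Members were less precise than genes of like level, with a median SE of 0.11 against 0.06 unstimulated and 0.09 against 0.05 at LPS 3 h. Genes of like level share only the lowest member mean of 1816 as a floor. They were not matched to the members' median of 8191, and the mean is not specific to either LPS state. In the cumulative curves the members lie to the right of both backgrounds.

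**Figure D2:**
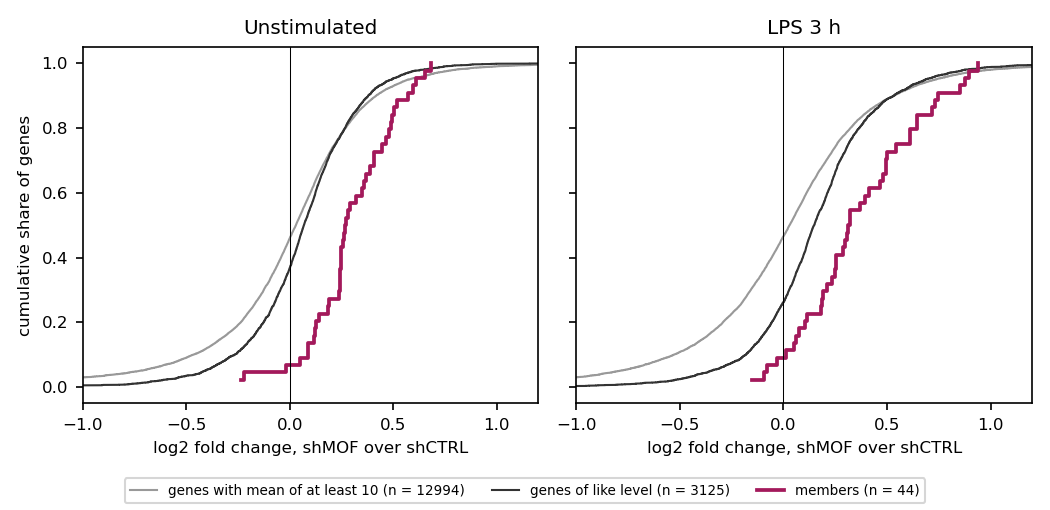
Cumulative share of genes (vertical axis) by log2 fold change, shMOF over shCTRL (horizontal axis, cropped), for the 44 members, the 3125 genes of like level and the 12994 genes whose mean normalized count reached 10. The members' median stood at 0.27 unstimulated and 0.32 at LPS 3 h, against 0.07 and 0.15 for genes of like level.

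The choice of zero bears on these counts. With fold changes centred on the median of genes of like level, an alternative chosen after seeing the data, 15 members rose and 0 fell unstimulated, and 20 rose and 2 fell at LPS 3 h. The 11 calls lost unstimulated were Adar, Daxx, Dtx3l, Ifi203, Ifi204, Oas1a, Oas2, Parp12, Parp14, Tor3a and Uba7. The 11 lost at LPS 3 h were Adar, Ifi35, Ifit2, Isg15, Oas1g, Oasl2, Parp12, Phf11b, Phf11d, Tor3a and Xaf1, and the falls of Sp100 and Oas3 were called there. When the test asked for a change beyond 0.25, 2 members rose unstimulated, Oasl2 and Parp9, and 11 at LPS 3 h. Those 11 were Cmpk2, Daxx, Ifi205, Ifi47, Ifit1, Mx1, Mx2, Parp14, Parp9, Rsad2 and Samd9l.

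By state, 20 members rose in both, 6 rose unstimulated and were not called at LPS 3 h, 11 were called at LPS 3 h alone, and 7 passed in neither. Over the 12994 genes with a mean of at least 10, 13.6% rose in both states, 7.91% rose unstimulated and were not called at LPS 3 h, 13.6% rose at LPS 3 h and were not called before it, and 34.4% passed in neither. The 7 members called in neither state were Herc6, Ifi44, Isg20, Oas3, Oasl1, Parp10 and Sp100. The 6 were Bst2, Ifitm3, Lgals3bp, Oas1a, Oas2 and Uba7. The 11 were Cmpk2, Eif2ak2, Ifi35, Ifit1, Ifit2, Phf11b, Phf11d, Rsad2, Rtp4, Samd9l and Usp18. Whether a member's effect differed between the states was tested by the difference of its log2 fold changes, LPS 3 h minus unstimulated. That difference passed for 10 of the 44: 7 had a higher effect at LPS 3 h (15.9%) and 3 a lower one (6.82%). Of the 12994 genes tested 18.2% had a higher and 12.4% a lower effect, and of genes of like level 32.6% and 11.9%. The share of members whose effect differed was thus not above either background. For the other 34, a p above the threshold does not show equal effects, since the median SE of the difference was 0.14.

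**Figure D3:**
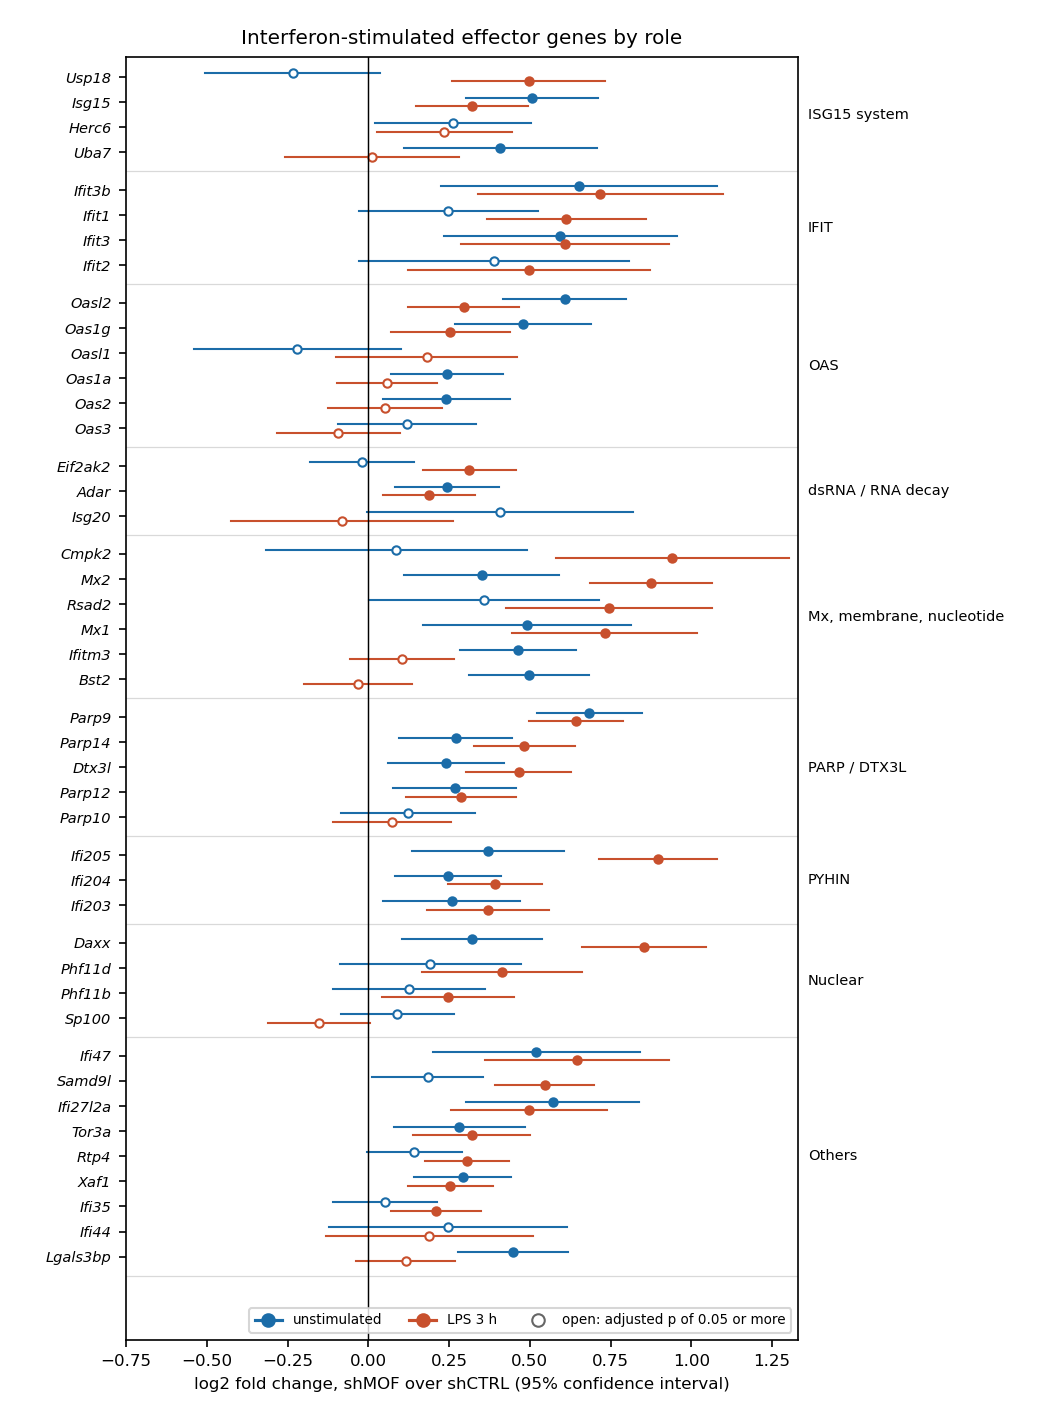
Log2 fold change, shMOF over shCTRL, with its 95% confidence interval for each of the 44 members, grouped by role, unstimulated in blue and LPS 3 h in red (open, adjusted p of 0.05 or more). Most points lie right of zero, Cmpk2 at LPS 3 h farthest at 0.94, and Usp18 unstimulated lies at -0.23.

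ISG15 is a ubiquitin-like protein that is joined to new proteins during infection, and its cycle is covered by 4 members. Isg15 rose in both states, by 0.51 (SE 0.10, adjusted p = 8.32e-06) unstimulated and 0.32 (SE 0.09, adjusted p = 8.78e-04) after LPS, per the authors' deposited table. Uba7, the activating enzyme for ISG15, rose by 0.41 (SE 0.15) unstimulated and had 0.01 (SE 0.14) after LPS, per the authors' deposited table. Its difference of -0.40 (SE 0.21) did not pass (adjusted p = 0.134). Herc6, the ligase in mice, had 0.26 (SE 0.12) and 0.23 (SE 0.11), neither called, per the authors' deposited table. Transcripts of Herc6 share 10.3% of their 100-base stretches with the annotated gene Gm45193. USP18, the protease that removes ISG15, also blocks signalling at IFNAR. Usp18 (ENSMUSG00000030107.10, chromosome 6, 121245906 to 121270917, GENCODE M21 on GRCm38) had -0.23 (SE 0.14, adjusted p = 0.178) unstimulated and rose by 0.50 (SE 0.12, adjusted p = 1.47e-04) after LPS, per the authors' deposited table. The difference for Usp18 was 0.73 (SE 0.18, adjusted p = 5.07e-04), the only one of the 4 to pass, with an interval for Uba7 of -0.80 to 0.01.

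The IFIT proteins bind viral RNA that lacks the host cap mark, and their 4 genes lie side by side on chromosome 19. All 4 rose at LPS 3 h and 2 of 4 unstimulated. Among genes of like level 55.0% rose at LPS 3 h and 38.0% unstimulated. In the authors' deposited table Ifit3 had 0.59 (SE 0.18) and 0.61 (SE 0.16), and Ifit3b had 0.65 (SE 0.22) and 0.72 (SE 0.19). Ifit1 was at 0.25 (SE 0.14, adjusted p = 0.160) unstimulated and rose by 0.61 (SE 0.13, adjusted p = 5.15e-06) after LPS, per the authors' deposited table. Ifit2 was at 0.39 (SE 0.21) and rose by 0.50 (SE 0.19) after LPS, per the authors' deposited table. None of the 4 differences between states passed, and their SE was large, with a median of 0.27. Ifit3 and Ifit3b cannot be read as separate measurements. Of the 100-base stretches in Ifit3 transcripts, as long as 1 read, 31.7% occur also in Ifit3b, and 27.4% the other way.

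Oligoadenylate synthetases make the messenger that activates RNase L when they bind double-stranded RNA, and 6 members encode them or their relatives. Of the 6, 4 rose unstimulated and 2 at LPS 3 h, with medians of 0.24 and 0.12, against 0.49 and 0.61 for the IFIT genes. Genes of like level rose in 38.0% and 55.0% of cases, with medians of 0.07 and 0.15. At LPS 3 h the synthetase genes were thus not above that background. Oasl2 (ENSMUSG00000029561.17, chromosome 5, 114896936 to 114912234), a ubiquitin-like relative of the synthetases, rose by 0.61 (SE 0.10, adjusted p = 5.20e-09) unstimulated and 0.30 (SE 0.09, adjusted p = 0.00220) after LPS, per the authors' deposited table. Its difference, -0.31 (SE 0.13), was just above the threshold (adjusted p = 0.0551) and passed with fold changes centred on their median. Oas1g rose by 0.48 (SE 0.11, adjusted p = 4.53e-05) and 0.25 (SE 0.09, adjusted p = 0.0162), per the authors' deposited table. Oas1a rose by 0.24 (SE 0.09) unstimulated and had 0.06 (SE 0.08) after LPS, per the authors' deposited table. Transcripts of Oas1a share 40.9% of their 100-base stretches with Oas1g, so the split between the copies is uncertain. Oas2 rose by 0.24 (SE 0.10) unstimulated and had 0.05 (SE 0.09) after LPS, per the authors' deposited table. Oas3 had 0.12 (SE 0.11) and -0.09 (SE 0.10), and Oasl1, which blocks translation of Irf7, had -0.22 (SE 0.16) and 0.18 (SE 0.14), with no call in either state, per the authors' deposited table. Oasl1 and Oasl2 are neighbours 11005 bases apart, and unstimulated their 95% intervals, -0.54 to 0.10 and 0.42 to 0.80, did not overlap.

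Of 3 further genes that act on RNA, Eif2ak2 encodes PKR, the kinase that stops translation on double-stranded RNA. It had -0.02 (SE 0.08, adjusted p = 0.884) unstimulated and rose by 0.31 (SE 0.07, adjusted p = 8.07e-05) after LPS, per the authors' deposited table. The difference for Eif2ak2, 0.33 (SE 0.11), passed (adjusted p = 0.0116) and was lost with centring on genes of like level. Adar, which edits adenosines in double-stranded RNA and so keeps host RNA from the sensors, rose by 0.24 (SE 0.08) and 0.19 (SE 0.07), per the authors' deposited table. The exonuclease gene Isg20 had 0.41 (SE 0.21) and -0.08 (SE 0.18), with no call, per the authors' deposited table.

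Genes of the Mx GTPases, which trap viral components, and of the nucleotide enzymes viperin and CMPK2 all rose at LPS 3 h, and both Mx genes rose unstimulated. Their role group also holds Bst2 and Ifitm3, described below, and 4 of its 6 genes rose in each state. Genes of like level rose in 38.0% of cases unstimulated and 55.0% at LPS 3 h. Cmpk2 (ENSMUSG00000020638.7, chromosome 12, 26469204 to 26479837), a mitochondrial nucleotide kinase, had 0.09 (SE 0.21, adjusted p = 0.785) unstimulated and rose by 0.94 (SE 0.18, adjusted p = 1.63e-06) after LPS, per the authors' deposited table. The difference for Cmpk2 was 0.85 (SE 0.28, adjusted p = 0.00921), the widest of the 44. Rsad2, which encodes viperin and starts 12751 bases from Cmpk2 on the opposite strand, had 0.36 (SE 0.18, adjusted p = 0.106) and then 0.75 (SE 0.16, adjusted p = 1.97e-05), per the authors' deposited table. For Rsad2 the difference of 0.39 (SE 0.24) did not pass (adjusted p = 0.231). Mx2 (ENSMUSG00000023341.14, chromosome 16, 97535308 to 97560900) rose by 0.35 (SE 0.12, adjusted p = 0.0129) and 0.88 (SE 0.10, adjusted p = 1.54e-18), per the authors' deposited table, and differed between states by 0.52 (SE 0.16, adjusted p = 0.00403). Its neighbour Mx1 rose by 0.49 (SE 0.16, adjusted p = 0.00923) and 0.73 (SE 0.15, adjusted p = 2.55e-06), per the authors' deposited table, with no call for the difference (adjusted p = 0.437).

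Of the 44 members, 3 had a lower effect at LPS 3 h, and they are grouped here for that direction: Bst2, Ifitm3 and Lgals3bp. Bst2 (ENSMUSG00000046718.7, chromosome 8, 71534255 to 71537456) encodes tetherin, which holds budding virus at the cell surface. It rose by 0.50 (SE 0.09, adjusted p = 1.23e-06) unstimulated and had -0.03 (SE 0.09, adjusted p = 0.799) after LPS, per the authors' deposited table. The 95% interval at LPS 3 h, -0.20 to 0.14, lay below the unstimulated one, 0.31 to 0.68, and the difference of -0.53 (SE 0.13) had the smallest p of the 44 (adjusted p = 2.80e-04). Ifitm3, which blocks fusion of virus in endosomes, rose by 0.46 (SE 0.09, adjusted p = 2.79e-06) and had 0.10 (SE 0.08, adjusted p = 0.305), per the authors' deposited table, with a difference of -0.36 (SE 0.12, adjusted p = 0.0146). Lgals3bp, a secreted galectin-binding glycoprotein, rose by 0.45 (SE 0.09, adjusted p = 1.98e-06) and had 0.12 (SE 0.08, adjusted p = 0.224), per the authors' deposited table, with a difference of -0.33 (SE 0.12, adjusted p = 0.0185). Macrophage markers moved the same way between states: 5 of 8 had a lower effect at LPS 3 h and 0 a higher one, among them Adgre1 with a difference of -0.31 (SE 0.07) and Fcgr1 with -0.53 (SE 0.20). The effect was lower at LPS 3 h for 12.4% of all genes tested and 11.9% of genes of like level. The part of the marker shift in Bst2, Ifitm3 and Lgals3bp was not tested.

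**Figure D4:**
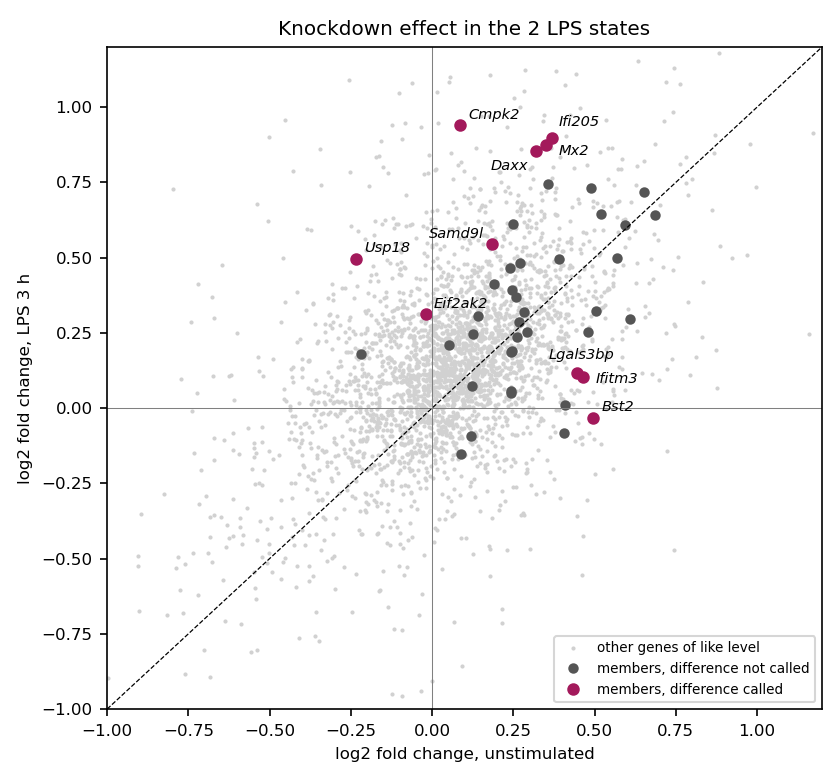
Log2 fold change at LPS 3 h against that in unstimulated cells for the 44 members and 3081 other genes of like level (grey, 43 of them outside the plotted range), with the line of equal effects dashed. The 10 members whose difference passed are named: 7, led by Cmpk2, lie above the line, and Bst2, Ifitm3 and Lgals3bp below it.

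Of 5 genes for ADP-ribosyltransferases and their ubiquitin ligase partner, 4 rose in both states and Parp10 in neither. Over all genes with a mean of at least 10, 13.6% rose in both states. Among genes of like level, 38.0% rose unstimulated and 55.0% at LPS 3 h. Parp9 (ENSMUSG00000022906.15, chromosome 16, 35938470 to 35972605) had the largest unstimulated rise of the 44, 0.68 (SE 0.08, adjusted p = 5.41e-15), and 0.64 (SE 0.07, adjusted p = 5.17e-17) after LPS, per the authors' deposited table. DTX3L forms a complex with PARP9, and the genes overlap head to head by 682 bases, 458 of them in exons. Dtx3l rose by 0.24 (SE 0.09, adjusted p = 0.0257) and 0.46 (SE 0.08, adjusted p = 9.32e-08), per the authors' deposited table. Unstimulated, the interval of Parp9, 0.52 to 0.85, lay above that of Dtx3l, 0.06 to 0.42, though both start from the same stretch of DNA. Whether counting used strand is not given in the sources used here, and without it reads of the shared exons cannot be assigned. Parp14, a mono-ADP-ribosyltransferase, rose by 0.27 (SE 0.09, adjusted p = 0.00832) and 0.48 (SE 0.08, adjusted p = 1.06e-08), per the authors' deposited table. Parp12 rose by 0.27 (SE 0.10) and 0.29 (SE 0.09), and Parp10 had 0.12 (SE 0.11) and 0.07 (SE 0.09), per the authors' deposited table. No difference between states passed in this group.

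The 3 PYHIN genes, of a family of DNA-binding proteins encoded in a cluster on chromosome 1, rose in both states, against 13.6% of all genes with a mean of at least 10. Genes of like level rose in 38.0% of cases unstimulated and 55.0% at LPS 3 h. Ifi205 (ENSMUSG00000054203.7, 174011998 to 174031810) rose by 0.37 (SE 0.12, adjusted p = 0.00727) unstimulated and 0.90 (SE 0.09, adjusted p = 1.43e-20) after LPS, per the authors' deposited table. That is 1.29-fold and 1.86-fold of the control level, and the difference of 0.53 (SE 0.15) passed (adjusted p = 0.00312). Ifi204 rose by 0.25 (SE 0.08, adjusted p = 0.00991) and 0.39 (SE 0.07, adjusted p = 7.97e-07), per the authors' deposited table. Ifi203 rose by 0.26 (SE 0.11) and 0.37 (SE 0.10), per the authors' deposited table. Copies in this cluster share sequence: 15.0% of 100-base stretches of Ifi205 and 10.7% of Ifi204 occur in other genes, mostly in Ifi211. For Ifi203 the share was 2.84%.

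Among the 4 nuclear members, Daxx moved most. Daxx (ENSMUSG00000002307.15, chromosome 17, 33909414 to 33915590), a histone chaperone of promyelocytic leukaemia (PML) bodies, rose by 0.32 (SE 0.11, adjusted p = 0.0125) unstimulated and 0.85 (SE 0.10, adjusted p = 3.44e-17) after LPS, per the authors' deposited table, and the difference of 0.53 (SE 0.15) passed (adjusted p = 0.00192). Sp100, another component of PML bodies, had 0.09 (SE 0.09) unstimulated and -0.15 (SE 0.08, adjusted p = 0.104) after LPS, per the authors' deposited table. With centring on the median of all genes or of genes of like level its lower value at LPS 3 h was called. Phf11d had 0.19 (SE 0.14) and rose by 0.41 (SE 0.13), and Phf11b had 0.13 (SE 0.12) and rose by 0.25 (SE 0.10) after LPS, per the authors' deposited table.

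Of the 8 members not yet described, 4 rose unstimulated and 7 at LPS 3 h, against 38.0% and 55.0% of genes of like level. Samd9l, a translation inhibitor, had 0.18 (SE 0.09, adjusted p = 0.0837) and rose by 0.55 (SE 0.08, adjusted p = 3.27e-11) after LPS, per the authors' deposited table. Its difference, 0.36 (SE 0.12), passed (adjusted p = 0.00969) and was lost with centring on genes of like level. Ifi27l2a, of a family of small mitochondrial membrane proteins, rose by 0.57 (SE 0.14, adjusted p = 1.54e-04) and 0.50 (SE 0.12, adjusted p = 1.96e-04), per the authors' deposited table. Ifi47, an immunity-related GTPase, rose by 0.52 (SE 0.16) and 0.64 (SE 0.15), per the authors' deposited table. Xaf1 rose by 0.29 (SE 0.08) and 0.25 (SE 0.07), and Tor3a by 0.28 (SE 0.10) and 0.32 (SE 0.09), per the authors' deposited table. Rtp4 and Ifi35 rose at LPS 3 h, by 0.31 (SE 0.07) and 0.21 (SE 0.07), and had 0.14 (SE 0.08) and 0.05 (SE 0.08) unstimulated, per the authors' deposited table. Transcripts of Rtp4 share 9.28% of their 100-base stretches with the annotated gene Gm45338. Ifi44 passed in neither state, with 0.25 (SE 0.19) and 0.19 (SE 0.16), per the authors' deposited table.

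Upstream of the effectors, of the 10 receptor and JAK-STAT genes 7 went up and 1 down unstimulated, and 8 went up and 1 down at LPS 3 h, with medians of 0.26 and 0.22. Beside them, 21.3% of all genes tested rose and 17.8% fell unstimulated, and 28.1% rose and 20.0% fell at LPS 3 h. Genes of like level rose in 38.0% and 55.0% of cases. Both chains of the type I receptor rose: Ifnar1 by 0.30 (SE 0.04) and 0.22 (SE 0.03), and Ifnar2 by 0.25 (SE 0.04) and 0.20 (SE 0.04), per the authors' deposited table. Irf9, which encodes the DNA-binding part of ISGF3, rose by 0.24 (SE 0.06) and 0.23 (SE 0.05), per the authors' deposited table. Stat2 rose by 0.26 (SE 0.10) unstimulated and had 0.20 (SE 0.09, adjusted p = 0.0534) after LPS, per the authors' deposited table. The kinase genes Jak1 and Jak2 were not called unstimulated and rose at LPS 3 h, by 0.43 (SE 0.03) and 0.65 (SE 0.04), per the authors' deposited table. Both differences passed, at 0.48 (SE 0.05, adjusted p = 8.23e-23) and 0.60 (SE 0.07, adjusted p = 8.41e-15). The interferon gamma receptor chains moved apart, Ifngr1 rising by 0.53 (SE 0.03) and 0.45 (SE 0.03) and Ifngr2 falling with -0.46 (SE 0.04) and -0.51 (SE 0.04), per the authors' deposited table.

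Genes that induce interferon from TLR4 down, with Tlr4, Cd14 and Ly96 among them, rose in 6 of 14 cases and fell in 1 unstimulated. At LPS 3 h 9 rose and 1 fell. Of all genes tested 21.3% rose and 17.8% fell unstimulated, and 28.1% rose and 20.0% fell at LPS 3 h. Genes of like level rose in 38.0% and 55.0% of cases. Ifnb1, the interferon beta gene, had a mean normalized count of 52.1, below that of every member. It was higher by 1.07 (SE 0.20) in knockdown than in control cells at LPS 3 h, per the authors' deposited table. Unstimulated it was at -0.31 with an SE of 1.11, per the authors' deposited table, so no effect could be read there. Irf7, the amplifier of interferon production and itself interferon-induced, rose by 0.44 (SE 0.13) unstimulated and had -0.01 (SE 0.12) after LPS, per the authors' deposited table, with a difference of -0.46 (SE 0.17, adjusted p = 0.0333). Ikbke behaved alike, with 0.43 (SE 0.08) and 0.02 (SE 0.07), per the authors' deposited table and a difference of -0.41 (SE 0.10, adjusted p = 5.22e-04). Irf1 rose by 0.74 (SE 0.08) and 1.13 (SE 0.07), and Tlr4 fell with -0.76 (SE 0.05) and -0.88 (SE 0.06), per the authors' deposited table.

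Negative regulators of the pathway rose in 7 of 11 cases and fell in 1 unstimulated, and in 9 and 1 at LPS 3 h, with medians of 0.16 and 0.37. All genes tested rose in 21.3% and 28.1% of cases, and genes of like level in 38.0% and 55.0%. Socs3, an inhibitor of JAK kinases, rose by 0.80 (SE 0.17) and 0.76 (SE 0.13), and the phosphatase gene Ptpn2 was called at LPS 3 h only, with 0.63 (SE 0.05) and a difference of 0.53 (SE 0.09) from its unstimulated 0.10 (SE 0.07), the fold changes being from the authors' deposited table. Ptpn6, which encodes the phosphatase SHP-1, went the other way: it rose by 0.58 (SE 0.05, adjusted p = 1.66e-29) unstimulated and by 0.13 (SE 0.05, adjusted p = 0.0141) after LPS, per the authors' deposited table, and its difference was -0.46 (SE 0.07, adjusted p = 9.66e-10).

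Guanylate-binding proteins and related GTPases rose in 6 of 14 measured cases unstimulated and 8 of 14 at LPS 3 h, with 0 falls and medians of 0.34 and 0.39. The background was 21.3% and 28.1% rising over all genes tested, and 38.0% and 55.0% among genes of like level. Iigp1 rose by 0.74 (SE 0.23) and 0.99 (SE 0.20), and Irgm2 by 0.34 (SE 0.11) and 0.66 (SE 0.10), per the authors' deposited table. Both encode immunity-related GTPases that act on the vacuoles of intracellular parasites. The smallest p for a difference in this list was that of Gbp5, with -0.09 (SE 0.20) and 0.90 (SE 0.15), per the authors' deposited table and a difference of 0.99 (SE 0.25, adjusted p = 5.39e-04). Nucleic acid sensors rose in 6 of 11 cases in each state and fell in 1 and 2. The same background shares apply to their rises, and 17.8% and 20.0% of all genes tested fell. Aim2, an inflammasome sensor of DNA, rose by 0.27 (SE 0.08) and 0.77 (SE 0.07), and Ifih1, which encodes the RNA sensor MDA5, by 0.37 (SE 0.09) and 0.80 (SE 0.08), per the authors' deposited table. Tlr9, the endosomal DNA receptor, rose by 0.77 (SE 0.12) and 0.53 (SE 0.11), per the authors' deposited table. Mb21d1, which encodes the DNA sensor cGAS, changed direction, from -0.55 (SE 0.10) unstimulated to 0.44 (SE 0.08) after LPS, per the authors' deposited table. Its difference of 0.998 (SE 0.12) passed (adjusted p = 6.55e-14). The difference passed for 8 of the 11 sensors, 5 higher and 3 lower, against 10 of the 44 effectors, and no test of that contrast was made. Over the 12994 genes tested for it, 18.2% had a higher and 12.4% a lower effect at LPS 3 h. In the plot of the lists, the effectors' medians of 0.27 and 0.32 stand beside 0.27 and 0.35 for the sensors and 0.09 and 0.21 for the induction genes.

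**Figure D5:**
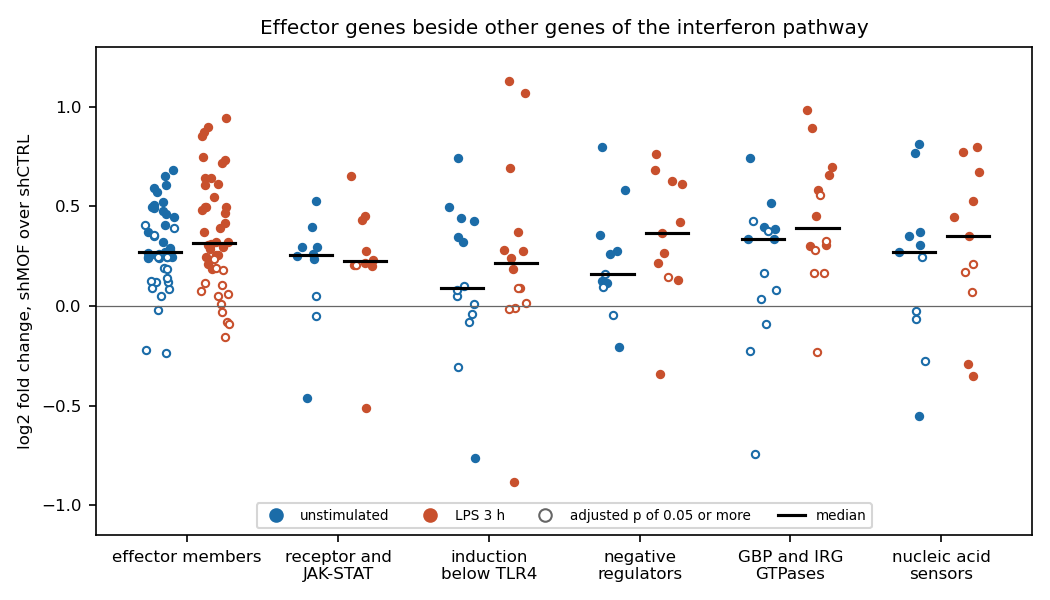
Log2 fold change, shMOF over shCTRL, of each measured gene in the effector list and 5 other lists of the interferon pathway, unstimulated in blue and LPS 3 h in red (open, adjusted p of 0.05 or more), with black bars at the medians. The effectors span -0.23 to 0.68 unstimulated, and Ifnb1 and Irf1 exceed 1 at LPS 3 h.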

How the data were processed

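Per the labels' protocols, libraries for RNA sequencing were stranded and read from both ends at 100 bp. They were made from 12 macrophage samples in 4 groups of 3. DESeq2 (no version) and mm10 are named, per the submitters' processing notes. Not given in the sources used here are aligner, counter, annotation release and use of strand. The authors deposited 2 tables, each holding for every gene a mean normalized count (a signal, identical in both tables, with the averaged libraries not stated), a log2 fold change with SE, a Wald statistic (a score), a p-value and an adjusted p-value. Library totals are unknown, so precision is known through the SE only.

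Members were called from the authors' adjusted p at 0.05, with no minimum fold, across 14264 genes unstimulated and the 13987 that have one at LPS 3 h. For the difference between states, the LPS fold change minus the unstimulated one (log2) was divided by the combined SE (squares added, root taken). Its normal p was two-sided and was adjusted by Benjamini-Hochberg over the 12994 genes whose mean reached 10. This takes the errors as uncorrelated. 95% confidence intervals are normal. Shared 100-base stretches were counted on the sense strand in GENCODE M21 transcripts.

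The members, lists and tests were chosen with earlier results of these data known. Members described in full are the 8 with the smallest p past the threshold in each comparison and the difference, and every member lower there. Each member with no call in either state is named, and of each pathway list at least the gene with the smallest p in each comparison and the difference. Ifnb1, Irf7, Stat2, Irf9 and Gbp5 were named for their role or after their values were seen. Values of 1 listed pathway gene are not reported here. The code was tested on simulated data. Python 3.11.15, scipy 1.17.1 and pandas 2.3.3 were used.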

Additional observations from a re-analysis of the deposited data

Results flagged for a closer look

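For 10 members the knockdown effect differed between unstimulated and LPS-treated cells, by the test of the difference of log2 fold changes, LPS 3 h minus unstimulated. The effect was higher at LPS 3 h for Usp18 by 0.73, Daxx by 0.53, Ifi205 by 0.53, Mx2 by 0.52, Cmpk2 by 0.85, Samd9l by 0.36 and Eif2ak2 by 0.33. It was lower for Bst2, with a difference of -0.53, for Ifitm3 with -0.36 and for Lgals3bp with -0.33. Usp18 and Eif2ak2 had negative values unstimulated, of -0.23 and -0.02, and Bst2 had one at LPS 3 h, of -0.03, none of them past the threshold. The share of members flagged in this way is not above that of all genes tested.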

How the results depend on the processing

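No paired analysis was possible because the tables hold no values per library, and for the same reason no replicate was left out. Of 26 members called unstimulated, 17 passed a threshold of 0.01, 2 a test for changes beyond 0.25, and 15 with centring on genes of like level, which was chosen after seeing the data. Of 31 called at LPS 3 h, 11 passed the test beyond 0.25. Under that test 0 of the 10 differences passed, with 3 at an unadjusted p under 0.05. Centring on the median of all genes and a minimum mean of 50 kept the 3 counts within 1.5 times. So did, for the 2 states (the difference was not run), adjustment over genes with a mean of at least 10 and leaving out 9 members picked by gene family. The 9 were Ifit3, Ifit3b, Oas1a, Oas1g, Ifi203, Ifi204, Ifi205, Phf11b and Phf11d. Of these Ifi203 and Phf11d share only 2.84% and 3.78% of 100-base stretches with other genes, while Herc6 (10.3%) and Rtp4 (9.28%) stayed in. The lowest member mean was 1816, so either minimum acted through the adjustment alone and removed no member. Leaving members out reused the same adjusted p, so only the called ones among them could change a count. These settings could thus show little instability. Centring reversed only members that were not called. With all genes Uba7 at LPS 3 h became -0.018. With genes of like level, Ifi35 unstimulated became -0.017, and at LPS 3 h Ifitm3 became -0.044, Lgals3bp -0.033, Oas1a -0.090, Oas2 -0.10, Parp10 -0.074 and Uba7 -0.14. The differences of Ifit3, Ifit3b, Parp12 and Tor3a became -0.066, -0.015, -0.062 and -0.043. The cause was not tested.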
